A study of Mus musculus with 2 samples.

Results

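The mouse collagen genes were followed as chromatin regions: every accessible region (peak) of the deposited table whose assigned gene is a collagen gene, a gene named Col with a chain number such as Col1a1. This rule gave 159 of 58076 peaks, assigned to 35 of the 44 collagen genes that RefSeq lists for the mouse build GRCm38.p6. Fibrillar collagens held 33 peaks on 10 of 11 genes, the basement membrane collagens of type IV held 34 peaks on 4 of 6 genes, and all other collagens held 92 peaks on 21 of 27 genes. No peak was assigned to Col10a1, Col11a2, Col4a3, Col4a6, Col6a1, Col6a4, Col7a1, Col9a1 or Col9a3.

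Accessibility was measured on nuclei of heart tissue by ATAC-seq, which uses Tn5 transposase to insert sequencing adapters where DNA is exposed. One library was from mice with a heart-specific knockout of Ythdc1 (genotype Ythdc1 CKO), and 1 was from control mice carrying floxed Ythdc1 alleles (Ythdc1flox/flox). All mice were 15 days old and on normal chow, and the study asked what deleting Ythdc1, whose protein binds N6-methyladenosine marks on nuclear RNA, does to accessible chromatin in the heart. Not given in the sources used here are the promoter that drives Cre in the knockout, the number of animals behind each library and any pooling.

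Collagens are triple helices of 3 alpha chains that form the scaffold of the extracellular matrix. Fibrillar collagens build cables that carry tension, and in the heart they are made mainly by fibroblasts. Type IV collagen forms the sheets under endothelium and around each cardiomyocyte. The remaining families coat fibrils, form beaded filaments or open networks, line basement membranes or span the cell membrane.

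Each genotype had 1 library, so differences could not be set against variation between animals, no test was run, and every value describes these 2 libraries. The knockout library held 6466537 counts in peaks and the control library 6755590. Ratios are knockout over control after scaling each library to the same total in peaks, as CPM, and log2 ratios have 0.5 counts added to each library. The 95% intervals in brackets are exact Clopper-Pearson intervals that cover counting error only, not variation between mice. A 2-fold difference is used as a fixed rule of size. The peak at the promoter of Ythdc1, on chromosome 5 from 86803786 to 86804858, had 314 counts in the knockout library and 358 in the control library, a ratio of 0.916 (0.785 to 1.07). Whether the deleted exons reach this peak is not stated, so the value does not check the labels.

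Scaled to counts in peaks, collagen peaks as a group lay slightly towards the knockout. Their median log2 ratio was 0.036, against -0.052 over all 58076 peaks, and 87 of the 159 were above 0, against 45.9% of all peaks. The 2-fold rule was passed upwards in the knockout library by 16 collagen peaks (10.1%), against a background of 6.09% of all peaks. It was passed downwards by 6 collagen peaks (3.77%), against a background of 8.96%. The counting interval lay above 1 for 36 collagen peaks (background 17.7%) and below 1 for 21 (background 21.7%). Summed over all collagen peaks there were 11779 counts in the knockout library and 11552 in the control library, a ratio of 1.07 (1.04 to 1.09).

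The authors' own scale, RPM from a total larger than the counts in peaks, moves every log2 ratio down by 0.17. On that scale the median of collagen peaks was -0.14 and that of all peaks -0.22, so the sign for collagens differed between the scales, and on both the collagen median was above that of all peaks. On the RPM scale 62 collagen peaks were above 0 (background 33%), and the balance of intervals turned, with 26 above 1 (background 10.7%) and 31 below 1 (background 33.6%).

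The peaks that passed 2-fold were those called as peaks in 1 library alone. Of the collagen peaks, 74 were called in both libraries, 39 in the knockout alone and 46 in the control alone, where all peaks split as 55%, 15.9% and 29.1%. All 16 higher peaks were among the 39 called in the knockout alone, a share of 41.0% against a background of 35.3%. All 6 lower peaks were among the 46 called in the control alone, a share of 13.0% against 28.9%. None of the 74 collagen peaks called in both libraries passed 2-fold in either direction, where the background was 0.851% higher and 1.02% lower. Among these 74 the counting interval was above 1 for 11 (background 14.9%) and below 1 for 3 (background 14.5%). A peak called in 1 library only is selected for a high count there, so the 2-fold counts partly follow peak calling. Most of the 2-fold peaks were also weak: in the upper part of mean signal, at or above 9.41 CPM, 2 of 78 collagen peaks passed 2-fold upwards (background 2.13%) and 1 was lower (background 2.26%).

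**Figure D1:**
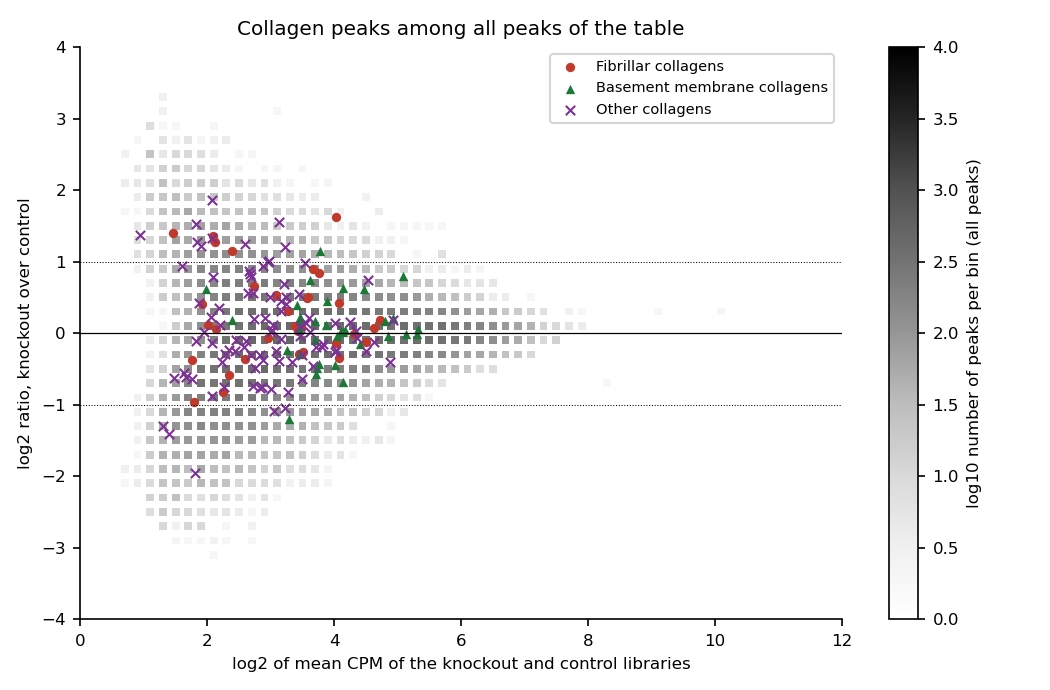
Log2 ratio of knockout over control (vertical axis) against log2 of the mean CPM of the knockout and control libraries (horizontal axis) for the 159 collagen peaks, coloured by class, over the density of all 58076 peaks (grey squares, log10 number of peaks per bin). Dotted lines mark 2-fold; most collagen peaks past them sit at low signal, and the fibrillar peak upstream of Col5a1 (160 counts in the knockout library, 54 in the control) and 1 type IV peak lie above the upper line at a mean signal over 9.41 CPM.

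Fibrillar collagens summed to 2427 counts in the knockout library and 2177 in the control library, a ratio of 1.16 (1.10 to 1.23), and 1.03 on the RPM scale. Basement membrane collagens summed to 4017 and 3963 counts in the knockout and control libraries, a ratio of 1.06 (1.01 to 1.11) that turned to 0.940 on the RPM scale. The other collagens summed to 5335 and 5412 counts in the knockout and control libraries, a ratio of 1.03 (0.991 to 1.07) that turned to 0.914 on the RPM scale. The interval of the fibrillar class overlapped that of the basement membrane class and not that of the other collagens. Of the fibrillar counts, 160 in the knockout library and 54 in the control library came from 1 peak upstream of Col5a1. Among peaks called in both libraries, which leave that peak out, the fibrillar interval overlapped those of both other classes. Median log2 ratios per peak were 0.10, 0.048 and -0.014 in the same order. Past 2-fold upwards were 5 fibrillar (15.2%), 1 basement membrane (2.94%) and 10 other peaks (10.9%), against 6.09% of all peaks. Past 2-fold downwards were 0 fibrillar, 1 basement membrane (2.94%) and 5 other peaks (5.43%), against 8.96% of all peaks. In peaks called in both libraries alone the order of the first classes changed, with summed ratios of 1.08 (1.01 to 1.15) for fibrillar, 1.11 (1.05 to 1.17) for basement membrane and 1.0 (0.954 to 1.05) for other collagens.

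Summed per gene, the counting interval lay above 1 for 11 of the 35 genes, where the background was 16.8% of 24480 gene identifiers, and below 1 for 3, where it was 23.6%. The 11 were Col12a1, Col1a2, Col20a1, Col27a1, Col3a1, Col4a1, Col4a4, Col5a1, Col5a2, Col8a1 and Col9a2, and the 3 were Col16a1, Col2a1 and Col6a6. On the RPM scale 5 genes lay above 1 (background 8.05%), namely Col1a2, Col20a1, Col5a1, Col5a2 and Col8a1, and 8 lay below (background 41.1%). Fibrillar genes made up 5 of the 11.

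**Figure D2:**
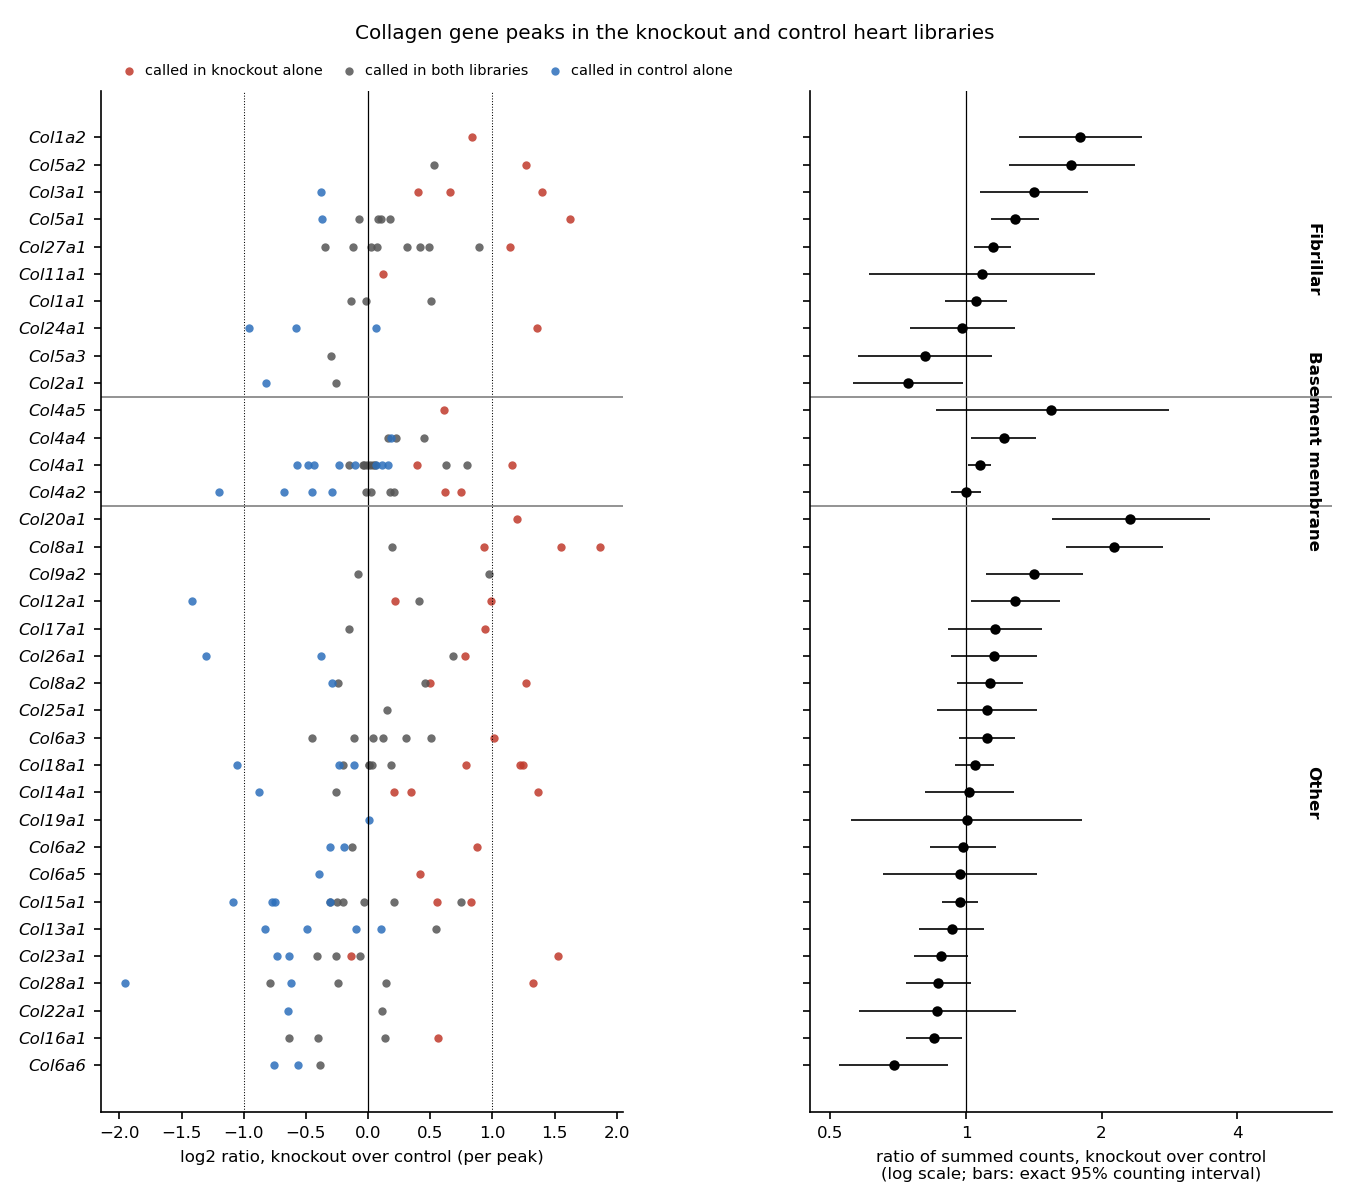
Left, the log2 ratio of knockout over control of each of the 159 collagen peaks, by gene and class, coloured by the library in which the peak was called, with dotted lines at 2-fold. Right, the ratio of counts summed over each gene's peaks on a log axis, with exact 95% counting intervals; Col20a1 (2.31) and Col8a1 (2.13) stand furthest right and Col6a6 (0.691) furthest left.

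Among the fibrillar genes, the 4 highest summed ratios belonged to chains of types I, III and V. Col1a2, which encodes the second chain of type I collagen, had a single peak, at its start on chromosome 6 from 4505151 to 4505780. It held 113 counts in the knockout library and 66 in the control library, a log2 ratio of 0.83 and a ratio of 1.79 (1.31 to 2.46), and was called in the knockout alone. Its partner Col1a1, for the first chain of type I, did not share this: its 3 peaks held 319 counts in the knockout library and 317 in the control library, a ratio of 1.05 (0.897 to 1.23). The promoter peak of Col1a1 had 100 and 115 counts in the knockout and control libraries, and its peaks about 7 and 8 kb upstream had 128 against 135 and 91 against 67 counts, so that 1 of the 3 had an interval above 1 (1.02 to 1.98).

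Col3a1, for type III collagen of elastic tissues such as vessel walls, had 4 weak peaks and none at its promoter. They held 28 against 22, 19 against 26, 26 against 10 and 53 against 35 counts in the knockout and control libraries, from left to right on chromosome 1. In 3 of the 4 the knockout library was higher, and the peak of 26 against 10 passed 2-fold at a ratio of 2.72 (1.27 to 6.31). The gene sum was 126 and 93 counts in the knockout and control libraries, a ratio of 1.42 (1.07 to 1.87).

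Type V collagen, which starts new fibrils and limits their width, has its chains encoded by Col5a1, Col5a2 and Col5a3. The highest fibrillar ratio in strong signal was at a peak 27449 bp upstream of Col5a1, on chromosome 2 from 27858354 to 27858976. It held 160 counts in the knockout library and 54 in the control library, a log2 ratio of 1.62 and a ratio of 3.10 (2.26 to 4.30), and was called in the knockout alone. The other 5 peaks of Col5a1 lay between -0.37 and 0.18 on the log2 scale, and its promoter peak had 181 counts in the knockout library and 167 in the control library, a ratio of 1.13 (0.912 to 1.41). The upstream region thus stood out from the other peaks assigned to Col5a1. Col5a2 had 65 counts in the knockout library and 47 in the control library at its promoter, and 40 against 17 in intron 6. Its gene sum had a ratio of 1.71 (1.24 to 2.38). The promoter of Col5a3 went the other way, with 63 counts in the knockout library and 81 in the control library, a ratio of 0.813 (0.575 to 1.14) whose interval includes 1.

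Col27a1, a fibrillar collagen best known from growth plate cartilage, had 9 peaks, of which 7 were above 0. Its highest in strong signal, in intron 41 of 60, had 107 counts in the knockout library and 60 in the control library and was called in both (ratio 1.86, 1.35 to 2.60). Its lowest, in intron 37, had 96 counts in the knockout library and 128 in the control library, and its 9 peaks ranged from -0.35 to 1.14 on the log2 scale. The gene sum of Col27a1 was 907 and 826 counts in the knockout and control libraries, a ratio of 1.15 (1.04 to 1.26). Col2a1, the main collagen of cartilage, was the lowest fibrillar gene, with 89 counts in the knockout library and 125 in the control library over 2 peaks (ratio 0.744, 0.560 to 0.984), the stronger of which had 67 against 84. Col11a1, which copolymerises with it, had 27 and 26 counts in the knockout and control libraries at its only peak. Col24a1 held 110 and 117 counts in the knockout and control libraries over 4 weak peaks that differed in both directions. The peak 1343 bp into Col24a1 had 40 counts in the knockout library and 16 in the control library (ratio 2.61, 1.43 to 5.0), and the one in intron 39 had 15 against 31 (0.505, 0.254 to 0.965).

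The basement membrane class rests almost wholly on Col4a1 and Col4a2, the chains of the type IV collagen found in nearly every basement membrane. The 2 genes lie head to head on chromosome 8, their RefSeq spans overlapping by 85 bp, and share 1 promoter peak from 11312371 to 11312963. That peak had 263 counts in the knockout library and 264 in the control library, a ratio of 1.04 (0.874 to 1.24). At the common start of the pair the 2 libraries could not be told apart at this depth.

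Across the pair, single regions differed in both directions. In Col4a1, intron 2 of 51 held the highest ratios: the peak from 11259871 to 11260111 had 122 counts in the knockout library and 57 in the control library (ratio 2.24, 1.62 to 3.12). The neighbouring peak from 11262060 to 11262950, called in both libraries, had 280 counts in the knockout library and 168 in the control library (ratio 1.74, 1.43 to 2.12). Yet the same intron also held a peak with 68 counts in the knockout library and 106 in the control library (ratio 0.670, 0.487 to 0.917). The 19 peaks assigned to Col4a1 ranged from -0.57 to 1.15 on the log2 scale, with 10 above 0, and summed to 2355 counts in the knockout library and 2295 in the control library, a ratio of 1.07 (1.01 to 1.14). That sum mixes the genes, since 6 of the 19 peaks lie on Col4a2, more than 1 kb from Col4a1. These 6 had 733 counts in the knockout library and 786 in the control library (ratio 0.974, 0.880 to 1.08). The 13 on or within 1 kb of Col4a1 had 1622 and 1509 counts in the knockout and control libraries, a ratio of 1.12 (1.05 to 1.21). Of the 13, the peak with 74 counts in the knockout library and 105 in the control library lies on Col4a2, beyond the Col4a1 start.

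In Col4a2, intron 4 of 47 held the only peak assigned to a type IV gene that was at least 2-fold lower in the knockout, from 11367756 to 11368012. It had 38 counts in the knockout library and 92 in the control library, a log2 ratio of -1.20 and a ratio of 0.432 (0.288 to 0.636), and was called in the control alone. A peak of the same intron, 11392860 to 11393289, went the other way, with 174 counts in the knockout library and 118 in the control library (ratio 1.54, 1.21 to 1.96). Further peaks assigned to Col4a2 had 87 against 146, 88 against 126 and 100 against 62 counts in the knockout library against the control library. Its 10 peaks ranged from -1.20 to 0.75 on the log2 scale and summed to 1319 and 1378 counts in the knockout and control libraries, a ratio of 1.0 (0.927 to 1.08). Over the whole locus of 251 kb and its near flanks, which also hold peaks that the authors assigned to other identifiers, 20 of 35 peaks were above 0.

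**Figure D3:**
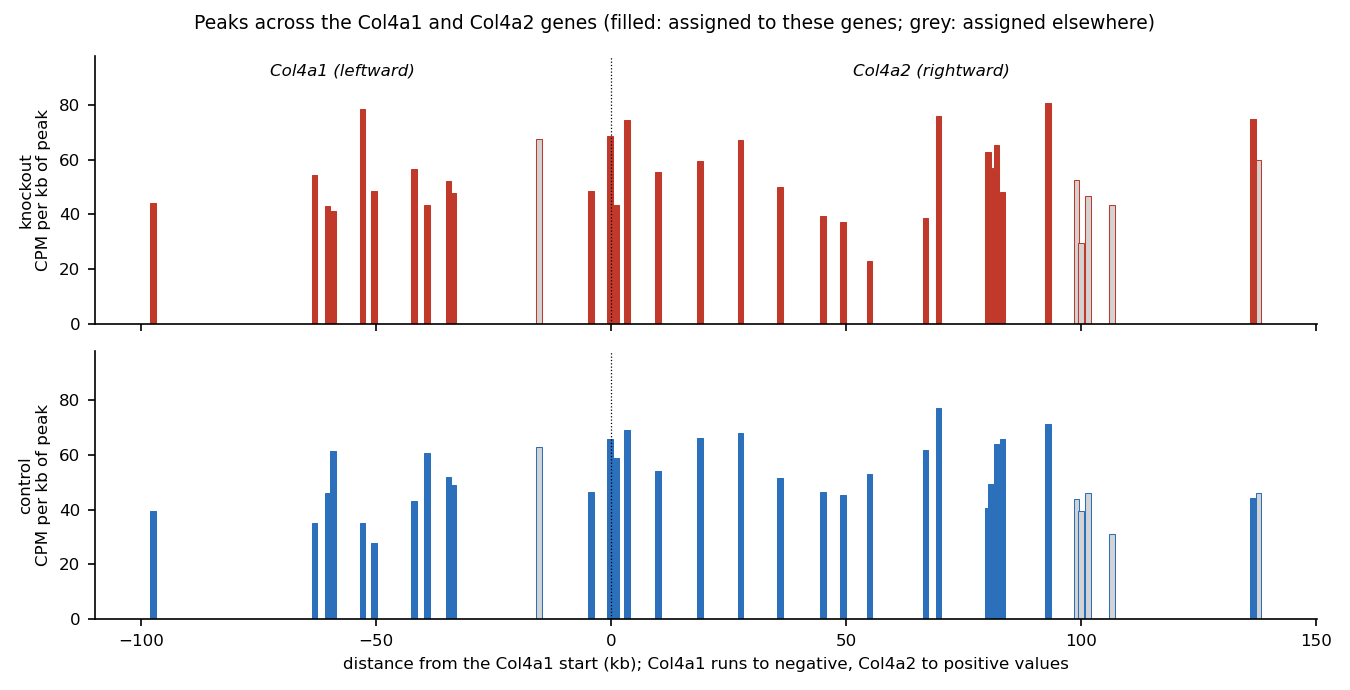
CPM per kb of peak in the knockout (top) and control (bottom) libraries for the 35 peaks across Col4a1 and Col4a2, by distance in kb from the start of Col4a1; bars are drawn wider than the peaks so that they can be seen, and grey bars are the peaks assigned to other identifiers. The profile is alike in the 2 libraries near the shared start, and the tallest difference to the left of it is the Col4a1 intron 2 pair (122 and 280 counts in the knockout library, 57 and 168 in the control).

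The chains of specialised basement membranes had few peaks. All 4 peaks assigned to Col4a4, a chain best known from the kidney glomerulus, were above 0. Its promoter peak, which also overlaps the RefSeq span of Col4a3, had 110 counts in the knockout library and 84 in the control library (ratio 1.37, 1.02 to 1.84). A further 5 peaks on Col4a4 that the authors assigned elsewhere had a summed ratio of 0.924 (0.754 to 1.13). Col4a5, on chromosome X, had 31 and 21 counts in the knockout and control libraries at its only peak, and the interval of 0.858 to 2.82 includes 1.

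Among the other collagens, the network-forming type VIII genes had the highest summed ratio of any subclass. Col8a1 and Col8a2 encode short chains that form open lattices in vessel walls and under the corneal endothelium. Their 9 peaks summed to 497 counts in the knockout library and 372 in the control library, a ratio of 1.40 (1.22 to 1.60), and 3 were 2-fold higher and none lower. By gene, the ratio was 2.13 (1.67 to 2.74) for Col8a1 and 1.13 (0.958 to 1.34) for Col8a2, whose interval includes 1. In Col8a1 the peak on the gene start, on chromosome 16 from 57754601 to 57754836, had 43 counts in the knockout library and 12 in the control library (ratio 3.74, 1.94 to 7.80). The peak in intron 1 of 3, from 57715116 to 57715787, had 85 counts in the knockout library and 30 in the control library (ratio 2.96, 1.93 to 4.65). Both were called in the knockout alone, whereas the peak 545 bp upstream of the start, called in both libraries, had 46 and 42 counts in the knockout and control libraries. In Col8a2 the promoter peak had 33 counts in the knockout library and 14 in the control library (ratio 2.46, 1.28 to 4.98), while its strongest peak, in intron 2, had 97 against 120 and one in exon 3 had 72 against 53.

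The collagens that bind to the surface of fibrils (FACIT) differed in both directions, with 994 counts in the knockout library and 969 in the control library over 19 peaks, a ratio of 1.07 (0.980 to 1.17). Col20a1 had the highest ratio of all 35 genes from its single peak, 1913 bp from a start, with 84 counts in the knockout library and 38 in the control library (ratio 2.31, 1.56 to 3.48). Col9a2, of cartilage, had 100 counts in the knockout library and 53 in the control library 1172 bp from its start, and 56 against 62 at the start itself. Col12a1, a fibril-coating collagen of tendon and ligament, had 67 counts in the knockout library and 35 in the control library at its promoter. That difference, a log2 ratio of 0.99, lay just inside 2-fold, and other peaks of Col12a1 had 9 against 26 counts in intron 43 and 70 against 55 in exon 53. Col16a1 was the lowest FACIT gene, with 164 counts in the knockout library and 227 in the control library at its promoter (ratio 0.755, 0.614 to 0.927) and 57 against 93 at a peak 2847 bp from a start.

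The beaded-filament collagens of type VI, which link cells to the surrounding matrix, were level as a group, with 827 counts in the knockout library and 868 in the control library over 16 peaks (ratio 0.995, 0.904 to 1.10). Within it Col6a3 and Col6a6 lay at opposite ends. The promoter peak of Col6a3 had 68 counts in the knockout library and 35 in the control library (ratio 2.03, 1.33 to 3.14), although its other 6 peaks stayed between -0.45 and 0.51 on the log2 scale. All 3 peaks assigned to Col6a6 were below 0, with 88 counts in the knockout library and 133 in the control library in sum, a ratio of 0.691 (0.522 to 0.912). A further 4 peaks on Col6a6 that the authors assigned elsewhere had a summed ratio of 0.903 (0.711 to 1.15), whose interval includes 1. Col6a2 had its strongest peak at the promoter, with 153 and 175 counts in the knockout and control libraries.

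Col15a1 and Col18a1, multiplexins that sit beside basement membranes and release anti-angiogenic fragments, were level in sum, with 1638 counts in the knockout library and 1704 in the control library (ratio 1.0, 0.938 to 1.08). Both had lower signal at an upstream start. At the upstream promoter of Col18a1, on chromosome 10 from 77165690 to 77166275, there were 39 counts in the knockout library and 85 in the control library, a log2 ratio of -1.05 and a ratio of 0.479 (0.319 to 0.708). At a second start within Col18a1, from 77113903 to 77114102, the order was the opposite, with 55 counts in the knockout library and 24 in the control library (ratio 2.39, 1.46 to 4.04). Col15a1 had 34 counts in the knockout library and 61 in the control library at its promoter, and 34 against 76 at a peak 1976 bp before it. Its strongest internal peak, in intron 27 of 38 and called in both libraries, had 188 counts in the knockout library and 117 in the control library (ratio 1.68, 1.33 to 2.13).

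The transmembrane collagens summed to 940 counts in the knockout library and 1024 in the control library, a ratio of 0.959 (0.877 to 1.05). Col23a1 had 6 of its 7 peaks below 0, down to -0.73 on the log2 scale, and the seventh, in intron 2, had 34 counts in the knockout library and 12 in the control library. Col13a1, known from the neuromuscular junction, had 45 counts in the knockout library and 84 in the control library 1385 bp before its start (ratio 0.560, 0.381 to 0.813) and 84 against 60 in intron 5. Its promoter peak was level, with 74 against 72 counts. A further 4 peaks on Col13a1 that the authors assigned elsewhere had a summed ratio of 1.37 (1.11 to 1.70). Col17a1, of the hemidesmosome, had 63 counts in the knockout library and 34 in the control library at a peak outside its RefSeq span. The authors placed that peak in a 3' UTR, which need not be that of Col17a1. The other Col17a1 peak, in an exon, had 87 against 101 counts. Col25a1 had 130 and 122 counts in the knockout and control libraries at its promoter. Col28a1 held the lowest ratio of the 159 assigned peaks, at a peak in intron 27 with 9 counts in the knockout library and 38 in the control library (ratio 0.247, 0.105 to 0.521), and also a 2-fold higher peak, in intron 3, with 39 against 16 counts. Of the remaining genes, Col14a1, Col19a1, Col22a1, Col26a1 and Col6a5 had gene-sum intervals that include 1.

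Promoters were read 1 per gene, as the strongest peak that the authors placed within 1 kb of a start, so that genes with many peaks weigh no more than others. Of the 35 genes 29 had one. Their median log2 ratio was 0.10, against -0.022 over 14854 genes, and 17 were above 0, against 46.8% of all genes. Col8a2 and Col6a3 were at least 2-fold higher (background 2.04%) and Col18a1 was at least 2-fold lower (background 2.29%). The interval was above 1 for 6 promoters (background 14.1%), those of Col1a2, Col12a1, Col27a1, Col4a4, Col6a3 and Col8a2, and below 1 for 4 (background 16.9%), those of Col15a1, Col16a1, Col18a1 and Col2a1. On the RPM scale the median of collagen promoters turned to -0.070. The start used by the authors need not be that of RefSeq. The Col4a2 peak read here, with 191 counts in the knockout library and 177 in the control library, lay 93 kb from the start shared with Col4a1. The Col2a1 peak also lay inside the RefSeq gene.

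**Figure D4:**
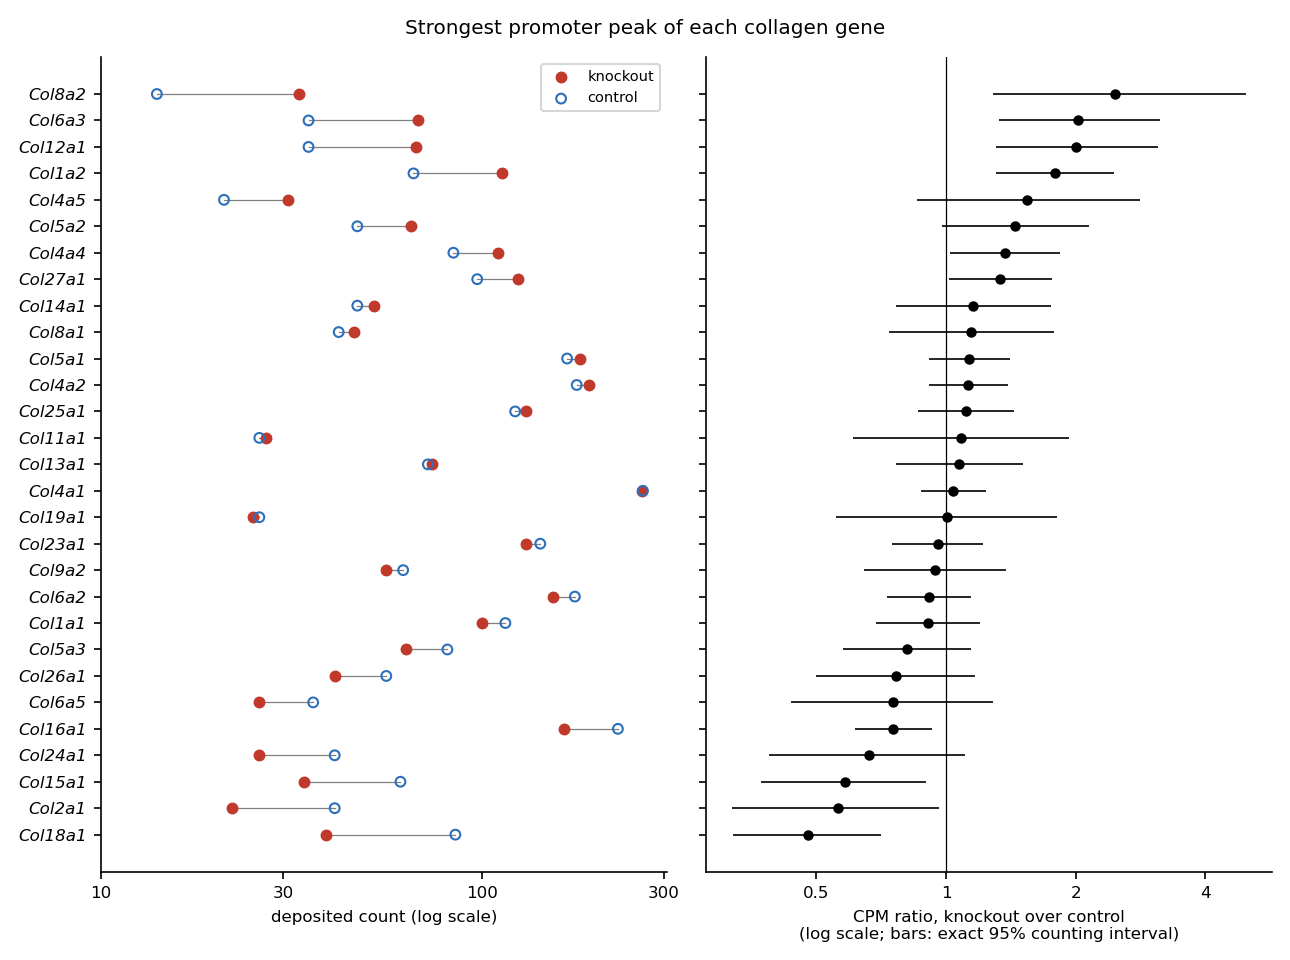
Left, deposited counts in the knockout (filled) and control (open) libraries at the strongest promoter peak of each of 29 collagen genes, on a log axis. Right, the CPM ratio of knockout over control on a log axis, with its exact 95% counting interval. Col8a2 (33 counts in the knockout library, 14 in the control) and Col6a3 (68 and 35) have the highest ratios, and Col18a1 (39 and 85) the lowest.

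The start regions that carry the promoter differences are shown as the 250 bases before the RefSeq start in build GRCm38.p6, 5′ to 3′ on the strand of the gene. Col1a2, Col6a3, Col8a1 and Col8a2 were chosen, with their values known, from the starts whose peak was called in the knockout alone with an interval above 1. The inner start of Col18a1 and the promoter of Col12a1 also had such a peak, and no sequence was available for Col12a1. Col5a1 is shown because its start was level while its upstream region was not. Capitals mark matches on either strand to CCAAT (the NF-Y box), GGGCGG (the Sp1 box), TATAAA (the TATA box), TGANTCA (the AP-1 site), GGAATG (the TEAD site) and CAGACA (a SMAD site).
Col1a2, chr6:4505368-4505617, plus strand: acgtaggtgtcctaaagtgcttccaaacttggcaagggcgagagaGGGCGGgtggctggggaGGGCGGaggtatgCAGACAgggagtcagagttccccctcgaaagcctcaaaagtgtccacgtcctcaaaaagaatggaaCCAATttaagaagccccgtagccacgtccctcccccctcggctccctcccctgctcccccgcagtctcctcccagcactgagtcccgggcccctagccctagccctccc
Col5a1, chr2:27886175-27886424, plus strand: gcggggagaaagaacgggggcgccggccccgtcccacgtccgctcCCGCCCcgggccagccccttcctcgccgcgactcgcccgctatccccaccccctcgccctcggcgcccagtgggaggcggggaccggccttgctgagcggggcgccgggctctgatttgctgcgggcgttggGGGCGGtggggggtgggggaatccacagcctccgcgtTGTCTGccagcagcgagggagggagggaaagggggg
Col6a3, chr1:90843972-90844221, minus strand: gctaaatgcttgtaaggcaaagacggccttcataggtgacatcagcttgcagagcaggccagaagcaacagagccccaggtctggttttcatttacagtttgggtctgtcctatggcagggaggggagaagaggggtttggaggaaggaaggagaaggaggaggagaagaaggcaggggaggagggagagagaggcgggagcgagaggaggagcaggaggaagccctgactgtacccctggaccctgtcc
Col8a1, chr16:57754738-57754987, minus strand: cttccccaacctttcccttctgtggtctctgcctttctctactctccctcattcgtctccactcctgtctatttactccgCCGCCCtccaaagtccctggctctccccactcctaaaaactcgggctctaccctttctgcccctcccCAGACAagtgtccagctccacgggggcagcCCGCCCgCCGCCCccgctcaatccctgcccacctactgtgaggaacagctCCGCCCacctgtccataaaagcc
Col8a2, chr4:126286544-126286793, plus strand: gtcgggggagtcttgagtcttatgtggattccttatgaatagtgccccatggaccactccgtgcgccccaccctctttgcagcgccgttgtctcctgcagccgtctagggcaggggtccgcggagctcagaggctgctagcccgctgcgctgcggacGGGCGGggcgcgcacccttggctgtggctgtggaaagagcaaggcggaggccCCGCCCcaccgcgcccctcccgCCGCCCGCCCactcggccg
Col1a2 holds 1 CCAAT, 2 GGGCGG and 1 CAGACA. Col8a1 and Col8a2 hold 4 GGGCGG each, a pair of which share bases in Col8a2. Col5a1 holds 2 GGGCGG and 1 CAGACA, and Col6a3 holds no match to any of the 6. Such a window was found for 35 of the 44 collagen genes, 38 windows in all. GGGCGG occurred in 57.9% of collagen windows, against 32.7% of all 32817 promoter windows, and the median GC content was 59% in collagen windows against 52.4% in all. CCAAT occurred in 34.2% against 33.8%, TATAAA in 13.2% against 12.4%, TGANTCA in 2.63% against 6.75%, GGAATG in 10.5% against 12.6% and CAGACA in 23.7% against 17.1%. These matches describe letters and do not show binding.

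Some peaks lie on a collagen gene but were assigned by the authors to another identifier, such as an antisense or nested gene. A reading by position was added after the values were seen. It found 179 peaks on or within 1 kb of 38 collagen genes, of which 128 were also members, 80.5% of the members and 71.5% of the peaks by position. The other 51, on or within 1 kb of 21 genes, had a median log2 ratio of 0.19 and a summed ratio of 1.15 (1.10 to 1.21). They included 6 that were 2-fold higher (11.8%, against 6.09% of all peaks) and 4 that were lower (7.84%, against 8.96%). Read by position, the fibrillar median log2 ratio was 0.42 in place of 0.10.

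The strongest of those past 2-fold was on Col5a3, on chromosome 9 from 20794065 to 20794603. It had 184 counts in the knockout library and 78 in the control library (ratio 2.46, 1.88 to 3.25), and unlike any member past 2-fold it was called in both libraries. A nearby Col5a3 peak had 63 counts in the knockout library and 25 in the control library. On Col8a1, a region assigned to the overlapping gene Cmss1 had 78 counts in the knockout library and 18 in the control library (ratio 4.53, 2.69 to 8.03). Within Col5a1 a region called in both libraries had 118 counts in the knockout library and 63 in the control library (ratio 1.96, 1.43 to 2.70), and another had 19 against 56. Col4a3 and Col4a6, which have no assigned peak, each carried 1 such region, with 33 against 5 counts on Col4a3 and 14 against 43 on Col4a6. Col24a1 carried 2 of the 4 lower ones, with 11 against 34 and 6 against 27 counts.

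Genes that make, process, bind or degrade collagen were read from a list of 59, of which 56 had a peak. Of their 176 peaks 20 were 2-fold higher (11.4%, against 6.09% of all peaks) and 7 were lower (3.98%, against 8.96%), and the median log2 ratio was 0.10, against -0.052. At their 49 promoters the median was 0.060, and Timp1 alone passed 2-fold, where 2.04% of all promoters were higher and 2.29% lower. Timp1, an inhibitor of matrix metalloproteinases, had 58 counts in the knockout library and 28 in the control library (ratio 2.16, 1.36 to 3.53). The degradation list mixes proteases with their inhibitors Timp1, Timp2 and Timp3, and had the highest summed ratio, 1.28 (1.22 to 1.35). Of its 7 promoters 5 were above 0. Timp3 had 180 counts in the knockout library and 133 in the control library at its promoter. The promoters of the proteases Mmp2, a gelatinase, and Ctsk had 31 against 59 and 54 against 87 counts in the knockout library against the control library. Those of the proteases Mmp14 and Mmp9 were not lower in this way, with 108 against 84 and 50 against 52 counts. Crosslinking enzymes had a summed ratio of 1.17 (1.06 to 1.29). Lox, which crosslinks collagen and elastin, had 92 counts in the knockout library and 57 in the control library at its promoter, and its relative Loxl4 had 67 against 112. The chain-modifying enzymes (1.05, 1.02 to 1.09) and the genes of folding and export (1.01, 0.962 to 1.07) were near 1, and the procollagen chaperone gene Serpinh1 had 303 and 307 promoter counts in the knockout and control libraries. Propeptide processing genes had 0.963 (0.900 to 1.03), fibril regulators 1.10 (1.04 to 1.16) and collagen receptors 1.12 (1.05 to 1.19). These ratios too are scaled to counts in peaks. With every log2 ratio 0.17 lower on the RPM scale, list ratios above 1 lie closer to 1 or below it there.

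Summed over their peaks, fibroblast, endothelial and valve interstitial markers were higher in the knockout library and cardiomyocyte markers were lower. The members of a list did not all share its direction. Promoter log2 ratios were above 0 for 4 of 4 fibroblast, 5 of 6 endothelial and 5 of 5 mural markers with a promoter peak. The same held for 3 of 6 cardiomyocyte, 1 of 3 valve interstitial and 1 of 3 chondrocyte markers, against 46.8% of all genes. The single epicardial and Schwann promoters were below 0. Peaks of 5 of 6 fibroblast markers (Lum had none) summed to 243 CPM in the knockout library and 203 in the control library, a ratio of 1.20 (1.11 to 1.29). Those of 6 of 6 endothelial markers summed to 774 and 671 CPM in the knockout and control libraries, a ratio of 1.15 (1.11 to 1.20). Those of 6 of 6 cardiomyocyte markers summed to 1510 and 1698 CPM in the knockout and control libraries, a ratio of 0.890 (0.866 to 0.914). Valve interstitial markers (3 of 3) had 1.17 (1.05 to 1.31). Their promoter counts in the knockout library against the control library were 99 against 34 for Scx, 39 against 58 for Postn and 51 against 54 for Cthrc1. The intervals of the mural (6 of 6, 0.955), myeloid (3 of 5, 1.14), epicardial (1 of 4, 1.10), Schwann (1 of 4, 0.946) and chondrocyte (4 of 5, 1.02) lists include 1. Within the mural list, the median log2 ratio was -0.32 over its 19 peaks and 0.32 at its 5 promoters. All these ratios are scaled to counts in peaks. The RPM scale moves every log2 ratio down by 0.17, so marker ratios above 1 lie closer to 1 or below it there. The part of these markers in the collagen values was not tested. In bulk tissue, fewer cells of a type and less accessible chromatin per cell cannot be told apart.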

How the data were processed

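The 2 ATAC-seq libraries were grouped by genotype label. BWA, MACS2 and GRCm38.p6 are named in the submitters' processing notes. Not given in the sources used here: read filters, duplicate removal, the Tn5 shift, and whether reads or cuts were counted. The authors deposited whole-number counts over 58076 merged peaks, not normalized, with the library in which each peak was called. The authors' RPM equals (count + 1) times 1 constant per library, 0.01822 in the knockout and 0.01965 in the control. A deposited ratio, fold enrichment, scales with (count + 1) over peak length, and the deposited log2 fold change is that of the RPM values; neither was used for the results.

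From the counts, CPM over peaks, log2 ratios (0.5 counts added), ratios of sums and exact intervals were computed with Python 3.11.15, pandas 2.3.3, numpy 2.4.6 and scipy 1.17.1 and tested on simulated data. Precision is set by counts per peak, whose median was 64 in the knockout and 60 in the control for collagens. The table has Ensembl identifiers without symbols. Identifiers took the symbol of the RefSeq gene (GRCm38.p6) with which they shared their span (30 collagen genes) or inside which they lay (5: Col2a1, Col17a1, Col11a1, Col9a2 and Col4a2). Of 24480 identifiers in all, 18618 matched. Coordinates are as deposited. Sequences are RefSeq's.

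Members and gene lists were chosen with earlier results of these data known. The naming rules covered every collagen by promoter and strongest peak, and every peak of the main type I, III and IV genes by value or range. They also covered the 5 highest and 5 lowest peaks per class in the upper part of signal, by value or range. Up to 4 genes per pathway list were named, with Mmp9 and Mmp14 added. Not every promoter or strongest peak has its value in the text. Those left out include level ones, such as the Col23a1 promoter and the strongest Col28a1 peak. The figures show every assigned peak. Other regions named were chosen after their values were seen. Alternatives used edgeR 4.0.16 (TMM) in R 4.3.3, a loess trend from statsmodels 0.14.6, the RPM scale, other pseudocounts, folds, filters and classes.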

Additional observations from a re-analysis of the deposited data

How the results depend on the processing

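Over all alternatives, 72 values of the class medians, class sums and 2-fold counts kept their direction and stayed within the main value's 95% interval (of the median over peaks, or of the summed counts) or, for counts of peaks, within 1.5 times. Another 11 values moved beyond these limits without changing direction, and 11 changed direction. On the authors' RPM scale the median log2 ratio turned to -0.14 for all collagen peaks, -0.068 for fibrillar, -0.12 for basement membrane and -0.070 for promoter peaks, and summed ratios became 1.03 for fibrillar, 0.940 for basement membrane and 0.914 for other collagens; the scale itself shifts all values by -0.17. The median of other collagens, -0.014, changed sign under TMM factors (0.038), a loess trend (0.12, with a summed ratio of 1.09), with Col15a1 and Col18a1 counted as basement membrane (0.0076) and without the gene with the most peaks (0.0097). In the upper part of signal 2 peaks were higher and 1 lower, and the summed ratio of other collagens was 0.988. Among peaks called in both libraries 0 were higher and 0 lower, and summed ratios were 1.08 for fibrillar and 1.11 for basement membrane collagens. A pseudocount of 5 left 3 lower peaks, and a 1.5-fold rule gave 34 higher and 20 lower. The causes were not tested. Matching by span alone and by position were added after seeing the data and left these results within the same limits, though by position the fibrillar median was 0.42.

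No paired analysis was possible because each genotype has 1 library; leaving out a replicate was not possible either. Weak peaks limit precision: a peak of 26 against 10 counts has an interval of 1.27 to 6.31. Variation between mice, dissections and library preparations is not measured here.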
